A study of Homo sapiens and Mus musculus with 15 samples.

Results

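The 10 genes described here make the pigment of the eye or build and move the organelle that holds it. They are the enzymes Tyr, Tyrp1 and Dct, the melanosome proteins Pmel and Mlana, the transporters Slc45a2 and Oca2, the transcription factor Mitf, and the transport proteins Rab27a and Mlph. They were chosen by name as members of the pathway, and all 10 were found among the 32285 genes of the mouse single-cell libraries, the 56832 genes of the mouse bulk table and, as upper-case symbols, the 61071 genes of the human bulk table. The series holds 1 single-cell library from C57BL/6J mice of 24 months (Old-RPE) and 1 from C57BL/6J mice of 3 months (Young-RPE), both from cells of the retinal pigment epithelium (RPE) released with papain after the retina had been removed. It also holds 9 bulk libraries of ARPE-19, an established human RPE cell line: 3 of cells that overexpress YAP-HA (a tagged form of the transcriptional co-activator YAP) on a gel of 1.5 kPa, 3 of control-vector cells on the same gel and 3 of control-vector cells on plastic. The last 4 libraries are bulk RNA from the eye cups of old C57BL/6J mice, 2 of mice given TRULI, which blocks the LATS kinases that restrain YAP, and 2 of mice without it. How many mice were pooled in each library, the age of these old mice and whether the ARPE-19 lines are clones are not given in the sources used here.

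Melanin is made in melanosomes. Tyrosinase (Tyr) oxidises tyrosine to dopaquinone, the rate-limiting step, and dopachrome tautomerase (Dct) and Tyrp1 act on later intermediates of eumelanin. Pmel forms the amyloid fibrils on which melanin is laid down, and Mlana (MART-1) binds Pmel and is needed for its maturation. Slc45a2 and Oca2 are melanosomal membrane proteins that keep the lumen at a pH at which tyrosinase works. Mitf is the basic helix-loop-helix transcription factor of pigment cells, and Rab27a with its effector Mlph links melanosomes to myosin motors in melanocytes, while in the RPE Rab27a works through another effector, Myrip. The RPE makes its pigment mainly before and shortly after birth and keeps its granules for life, and the choroid behind it holds melanocytes, which derive from the neural crest and express most of the same genes.

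Mitf and its relatives bind the E-box CATGTG, which in promoters of pigment genes often carries a leading T, as in the M-box TCATGTG. Of the human members, 8 had a promoter in the RefSeq table of GRCh38.p14, and a script searched the 250 bases before each transcription start on both strands (CATGTG, or CACATG in reverse). One match is shown for each of the 4 genes that had any, since TYR, TYRP1 and DCT, the enzymes of the pathway, share it. The 6 bases are in capitals and the strand of the gene is printed.

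TYR, chr11:89177751-89177796, plus strand: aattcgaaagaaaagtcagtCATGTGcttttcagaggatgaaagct
TYRP1, chr9:12693221-12693266, plus strand: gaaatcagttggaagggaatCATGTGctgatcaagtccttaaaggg
DCT, chr13:94479791-94479836, minus strand: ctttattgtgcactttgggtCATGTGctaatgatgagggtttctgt
OCA2, chr15:28099443-28099488, minus strand: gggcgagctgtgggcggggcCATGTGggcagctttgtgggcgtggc

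These stretches lie upstream of an annotated transcription start, which for DCT is 1 of 2 and lies within the span of its longer transcript. The motif was 104 bases before the start of TYR, 144 before that of TYRP1, 134 before that of DCT and 153 before that of OCA2. The motif had a leading T in TYR, TYRP1 and DCT and not in OCA2. TYR and TYRP1 held a further match 12 and 11 bases before the start, and DCT a further one at 215 bases, and of these further matches only that of DCT had the added base of the M-box. No match lay in the windows of MLANA, MITF (3 starts), RAB27A (5 starts) or MLPH (2 starts). CATGTG was present in 9.42% of 35116 such windows and TCATGTG in 2.52%. By gene, 11.5% of 27305 genes had CATGTG in any of their windows and 3.11% had TCATGTG. A match in letters is a description of the window and no evidence of binding.

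The single-cell libraries were filtered to 15198 cells in Old-RPE and 15667 in Young-RPE, with 82897938 and 89817876 unique molecular identifiers (UMIs) and medians of 3699 and 4586 UMIs per cell. Of the barcodes, 381 occurred in both libraries, 300 of them among the kept cells. RPE cells were taken as cells with at least 4% of UMIs from Rpe65, Rlbp1 and Ttr. This gave 5270 cells (34.7%) with a median of 4190 UMIs in Old-RPE and 1788 cells (11.4%) with a median of 11623.5 UMIs in Young-RPE. The 10 RPE markers that the gate did not use, among them the retinoid genes Rgr, Rdh5 and Lrat, summed to 34780 CPM in Old-RPE and 37275 CPM in Young-RPE in these cells, against 5103 and 3248 CPM in the other cells (CPM, UMIs of a gene per 1000000 UMIs of the class). Of the 10, Best1 was near 0 in RPE cells, at 1.03 CPM in Old-RPE and 0.467 CPM in Young-RPE. With 1 library per age there was no test of age. Intervals are exact 95% intervals (for differences of levels, normal approximations), they cover counting error only, and a difference between the libraries may come from the animals, the dissociation or the library as well as from age.

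In RPE cells the members split by how far the libraries differed. Dct was the most abundant in both, at 356 CPM in Old-RPE and 716 CPM in Young-RPE, and Mlph the least, at 2.36 and 11.5 CPM. These ranks are by UMIs and are a description, since how well a message is captured may differ between genes. Of the 10 members, 5 were lower in Old-RPE by a log2 ratio of −1 or more, namely Pmel, Mlph, Tyrp1, Mlana and Dct, where 1.74% of 14727 genes with at least 20 UMIs were. No member reached 1 in the other direction, where 4.89% of genes did. Dct, at −1.01, was the member just inside that limit and Slc45a2, at −0.97, the one just outside it. The median log2 ratio was −0.99 over the members and −0.04 over all genes.

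Among the enzymes the 3 ratios differed by more than their intervals. Tyrp1 was at 31.8 CPM in Old-RPE and 154 CPM in Young-RPE, a log2 ratio of −2.28 (−2.37 to −2.19). Dct had a log2 ratio of −1.01 (−1.04 to −0.98). Tyr was at 197 CPM in Old-RPE and 246 CPM in Young-RPE, a log2 ratio of −0.32 (−0.37 to −0.27). The RNA of Tyr, whose enzyme starts the pathway, thus differed least of the 3 and that of Tyrp1 most. In Young-RPE, however, the level of Tyrp1 in RPE cells was below that of other cells (values below).

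The RNA of both melanosome proteins was lower in RPE cells of Old-RPE than in those of Young-RPE. In Young-RPE, however, it was below the level of other cells (values below). Pmel was at 20.7 CPM in Old-RPE and 149 CPM in Young-RPE, a log2 ratio of −2.85 (−2.96 to −2.74), the lowest of the 10. Mlana was at 34.0 CPM in Old-RPE and 145 CPM in Young-RPE, a log2 ratio of −2.09 (−2.18 to −2.01). Both genes also define the gate for pigment-rich cells used below, and RPE cells at that gate, with 0.5% or more of UMIs from Pmel and Mlana, numbered 16 in Old-RPE and 83 in Young-RPE.

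The transporters parted. Slc45a2 was at 10.9 CPM in Old-RPE and 21.3 CPM in Young-RPE, with a log2 ratio of −0.97 (−1.15 to −0.79). Its level in RPE cells of Young-RPE was below that of other cells (values below). Oca2, which is needed for tyrosinase to work at melanosomal pH, was at 109 CPM in Old-RPE and 114 CPM in Young-RPE, with an interval of −0.12 to 0.01 around −0.06 that held 0.

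Over all RPE cells together, the regulator and Rab27a were close to level between the libraries (values by depth and gate below). Mitf was at 97.7 CPM in Old-RPE and 103 CPM in Young-RPE, with a log2 ratio of −0.07 (−0.14 to −0.0040). Rab27a was at 117 CPM in Old-RPE and 122 CPM in Young-RPE, with a log2 ratio of −0.06 (−0.12 to 0.0058). Mlph, which the RPE is not known to need, had 103 UMIs in Old-RPE and 295 UMIs in Young-RPE in all RPE cells together, and its log2 ratio was −2.28 (−2.62 to −1.95). Of the genes of melanosome transport, those of the GTPase and of its melanocyte effector therefore gave very different ratios. The level of Mlph in RPE cells was below that of other cells in both libraries (values below).

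**Figure D1:**
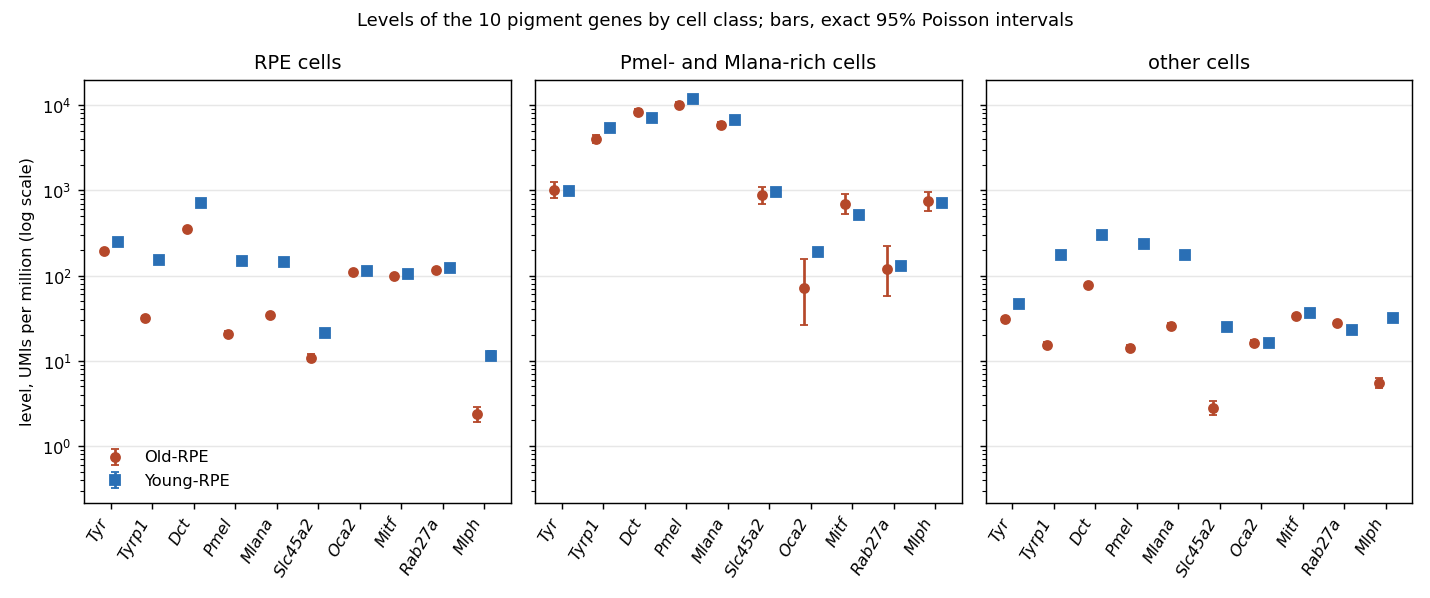
Level of each of the 10 genes (CPM, log scale) in RPE cells, in Pmel- and Mlana-rich cells and in other cells, with Old-RPE and Young-RPE as separate symbols and exact 95% Poisson intervals as bars. Oca2, Mitf and Rab27a sit at nearly the same height for both libraries in RPE cells, while Pmel is at 20.7 in Old-RPE and 149 in Young-RPE.

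The other cells, 9888 in Old-RPE and 12531 in Young-RPE, were used as a measure of free RNA, since fibroblasts and endothelial cells are not expected to make most of these messages. For Mitf and Rab27a they are no such measure, since macrophages and T cells among them can make these (values below). Cells above the Pmel and Mlana gate with under 3% of UMIs from Rpe65, Rlbp1 and Ttr are not among them. The 885 cells of Old-RPE and 603 of Young-RPE with 3 to 4% from these genes are. Of these, 19 in Old-RPE and 158 in Young-RPE were above the Pmel and Mlana gate. Pmel was at 14.2 CPM in these other cells of Old-RPE and 233 CPM in those of Young-RPE, a log2 ratio of −4.04 (−4.16 to −3.91). The ratios were −3.54 for Tyrp1, −3.17 for Slc45a2, −2.74 for Mlana, −2.53 for Mlph, −1.94 for Dct and −0.59 for Tyr. Of the 10 members, 6 lay at or below −1 there, where 4.37% of 16643 genes did, and 0 at or above 1, where 8.86% did. In fibroblast-gated cells alone, again 6 lay at or below −1, where 3.84% of 14916 genes did, and 0 at or above 1, where 4.87% did. Oca2 was at 16.3 CPM in the other cells of both libraries, Mitf at 33.7 and 35.9 CPM in Old-RPE and Young-RPE, and Rab27a at 27.9 and 22.9 CPM, with a log2 ratio of 0.29 (0.17 to 0.40). The genes that were low in RPE cells of Old-RPE were thus also low in its other cells, and the part of free RNA in their ratios in RPE cells was not tested.

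The comparison of RPE cells with other cells inside each library sorted the members differently in Old-RPE and Young-RPE. In Old-RPE, 7 members were at least 2-fold higher in RPE cells than in other cells, where 14.0% of 16211 genes were. These were Oca2 (6.70-fold), Tyr (6.44-fold), Dct (4.62-fold), Rab27a (4.21-fold), Slc45a2 (3.91-fold), Mitf (2.90-fold) and Tyrp1 (2.10-fold). In Young-RPE, 5 members were at least 2-fold higher, where 13.5% of 16112 genes were, and these were Oca2 (6.97-fold), Rab27a (5.34-fold), Tyr (5.33-fold), Mitf (2.87-fold) and Dct (2.42-fold). The other 5 members of Young-RPE were lower in RPE cells than in other cells, with ratios of 0.872 for Tyrp1, 0.849 for Slc45a2, 0.844 for Mlana, 0.640 for Pmel and 0.361 for Mlph, and no interval held 1. Since these levels did not exceed those of the other cells, no expression of the 5 genes in young RPE cells is read from them, and the part of free RNA was not tested. Against fibroblast-gated cells alone, Tyrp1 was 1.15-fold, Slc45a2 1.15-fold and Mlana 1.07-fold higher in RPE cells of Young-RPE, and Pmel and Mlph were lower. In Old-RPE only Mlph was lower in RPE cells than in other cells, with a ratio of 0.428, while Pmel was 1.46-fold and Mlana 1.32-fold higher.

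The difference outside the RPE did not belong to 1 class. In Old-RPE, Pmel was at 9.20 CPM in fibroblast-gated cells, 17.9 CPM in endothelial-gated cells, 4.27 CPM in macrophage-gated cells and 10.1 CPM in T cell-gated cells. All 4 were below the 20.7 CPM of RPE cells in that library, though the interval of the endothelial-gated cells, from 11 UMIs, reached up to 32.1 CPM. In Young-RPE the same classes had 182, 264, 258 and 177 CPM, all above the 149 CPM of RPE cells, though the interval of the T cell-gated cells, from 36 UMIs, reached down to 124 CPM. The number of Pmel UMIs for each Dct UMI was 0.208 in RPE cells of Young-RPE, against 0.868 in its fibroblast-gated, 0.870 in its endothelial-gated and 0.840 in its macrophage-gated cells. Mitf went another way, since macrophage-gated cells had 60.7 CPM in Old-RPE and 65.4 CPM in Young-RPE, against 25.0 and 23.3 CPM in fibroblast-gated cells. Mitf is also known from macrophages and osteoclasts. Rab27a reached 44.1 CPM in T cell-gated cells of Old-RPE, where the protein is known for the release of cytotoxic granules.

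**Figure D2:**
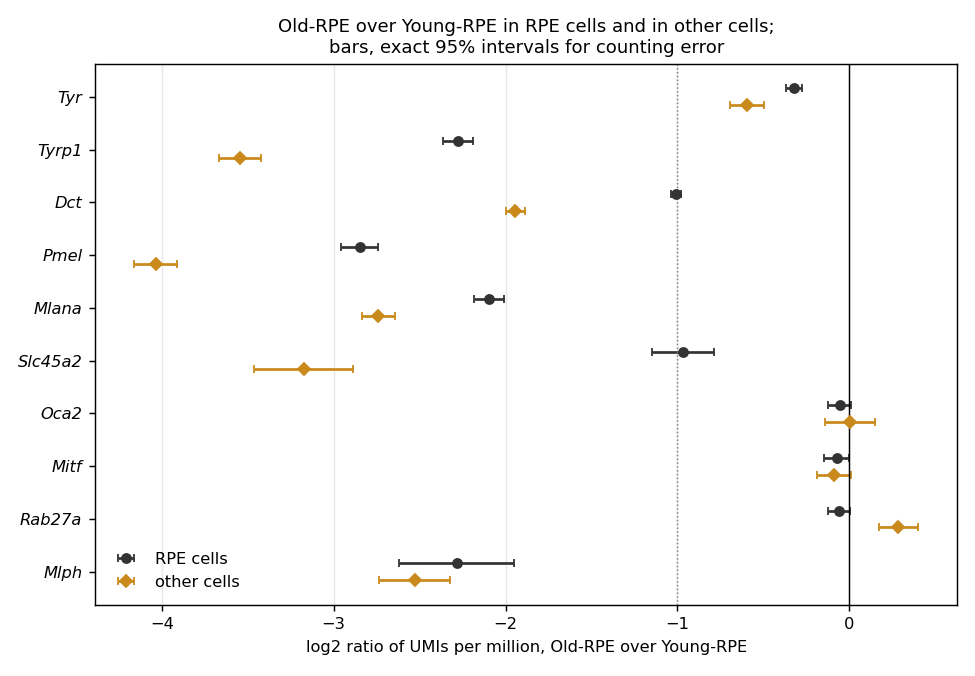
Log2 ratio of CPM, Old-RPE over Young-RPE, for each gene in RPE cells and in other cells, with exact 95% intervals for counting error as bars. Tyrp1, Pmel, Mlana, Slc45a2, Mlph and Dct lie further left in other cells than in RPE cells, and Oca2 and Mitf lie near 0 in both.

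Subtracting the level in the other cells of the same library changed the picture for some members and not for others. The net level of Oca2 was 93.1 CPM in Old-RPE and 97.4 CPM in Young-RPE, that of Mitf 64.0 and 67.0 CPM, that of Rab27a 89.5 and 99.4 CPM and that of Tyr 166 and 199.5 CPM. The net level of Dct was 279 CPM in Old-RPE and 419.8 CPM in Young-RPE, a log2 ratio of −0.59. No net ratio could be computed for Tyrp1, Pmel, Mlana, Slc45a2 and Mlph, since their net levels in Young-RPE were below 0. Summed over the 10 members, RPE cells had 977 CPM in Old-RPE and 1782 CPM in Young-RPE, a log2 ratio of −0.87. The other cells had 249 and 1056 CPM. The difference was 728 CPM (717 to 738) in Old-RPE and 726 CPM (708 to 744) in Young-RPE, and its log2 ratio was 0.0036. The sum of Young-RPE includes the 5 net levels below 0, which no cell can have (Pmel alone was at −83.7 CPM), so the likeness of the sums is not read as like expression. Each of the 5 members with a net level above 0 in both libraries had the lower value in Old-RPE. For Oca2 the intervals overlapped, at 89.7 to 96.4 CPM in Old-RPE and 93.2 to 102 CPM in Young-RPE. Those of Mitf did too, at 60.5 to 67.4 CPM in Old-RPE and 62.8 to 71.2 CPM in Young-RPE. The net levels of Mitf and Rab27a also subtract what macrophages and T cells may make.

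The make-up of the sum shows the same split. Of the UMIs of the 10 members in RPE cells, Dct held 36.4% in Old-RPE and 40.2% in Young-RPE, and Tyr 20.1% and 13.8%. Rab27a held 12.02% in Old-RPE and 6.87% in Young-RPE, Oca2 11.2% and 6.38%, and Mitf 10.0% and 5.78%. Pmel held 2.12% in Old-RPE and 8.37% in Young-RPE. There were 5.29 Oca2 UMIs for each Pmel UMI in RPE cells of Old-RPE and 0.763 in those of Young-RPE. In other cells these ratios were 1.15 in Old-RPE and 0.0701 in Young-RPE, and in the Pmel- and Mlana-rich cells 0.00714 and 0.0160.

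Depth and the purity of the gate moved with the levels. In RPE cells of Old-RPE, Pmel was at 85.6 CPM in cells under 2000 UMIs, 25.1 CPM from 2000 to 8000, 14.4 CPM from 8000 to 16000 and 17.0 CPM at 16000 or more. In Young-RPE the same strata had 1348, 291, 234 and 100.2 CPM. Pmel was thus higher in shallow cells of both libraries, and lower in Old-RPE at every depth. Dct was at 390.4, 401, 376 and 334 CPM over these strata in Old-RPE, and at 1699.5, 853, 857 and 663 CPM in Young-RPE. Oca2 was at 70.6, 113, 117 and 109 CPM in Old-RPE, and at 86.4, 132, 122 and 112 CPM in Young-RPE, and the interval of the ratio held 0 in every stratum. Over these strata the log2 ratios were −0.61, 0.12, −0.28 and −0.15 for Rab27a, and −0.40, −0.19, −0.21 and −0.06 for Mitf. The interval of Rab27a held 0 only from 2000 to 8000 UMIs. That of Mitf lay off 0 only from 8000 to 16000 UMIs.

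Stricter gating had a like effect on Pmel. Cells with 3 to 4%, 4 to 5%, 5 to 8% and 8% or more of UMIs from Rpe65, Rlbp1 and Ttr had 49.0, 43.1, 22.3 and 16.2 CPM in Old-RPE, and 983, 527, 203 and 81.7 CPM in Young-RPE. Over the same strata Oca2 was at 71.0, 91.5, 110 and 111 CPM in Old-RPE, and at 107, 128, 115 and 112 CPM in Young-RPE. Its log2 ratio was −0.59 (−0.92 to −0.25) at 3 to 4% and −0.48 (−0.76 to −0.20) at 4 to 5%. At 5 to 8% and at 8% or more its interval held 0. The ratios were −0.49, −0.40, −0.23 and 0.09 for Rab27a, and −0.81, −0.32, −0.14 and −0.03 for Mitf. For both of these genes the interval held 0 only at 8% or more. The part of depth and of the gate in the ratios was not tested beyond these values.

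**Figure D3:**
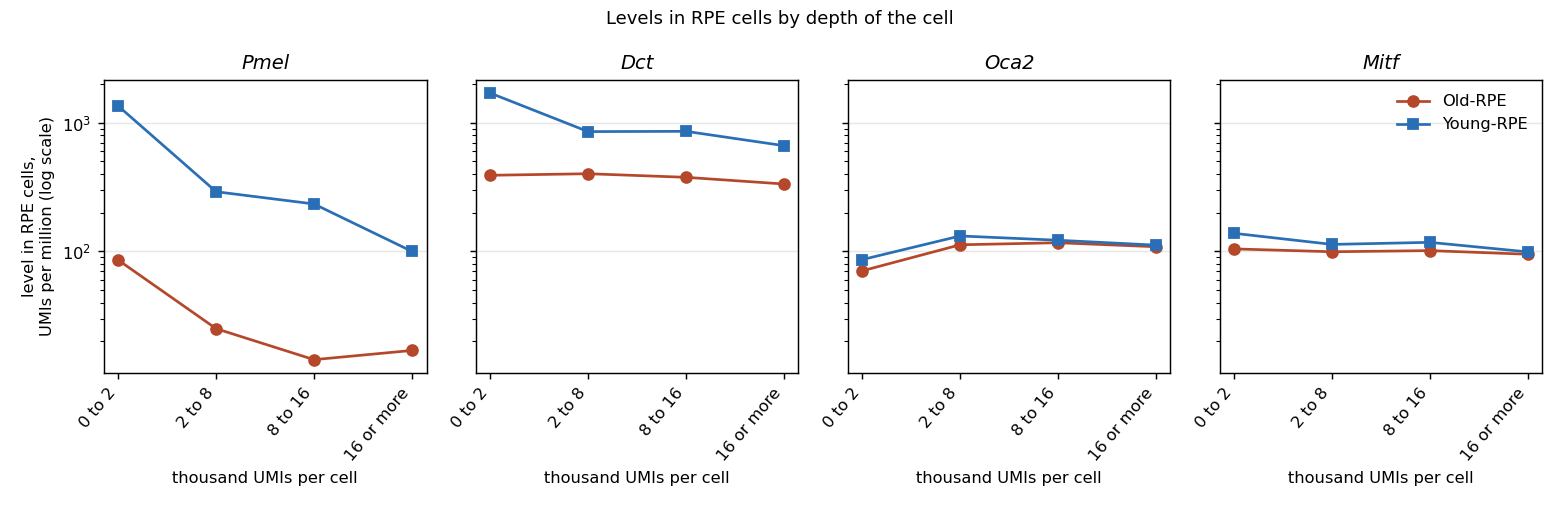
Level in RPE cells (CPM, log scale) of Pmel, Dct, Oca2 and Mitf in 4 strata of UMIs per cell (x axis), with Old-RPE and Young-RPE as separate lines and no error bars. Pmel is at 85.6 in the shallowest and 17.0 in the deepest stratum of Old-RPE, and at 1348 and 100.2 in those of Young-RPE, while Mitf stays between 95.02 and 138 in all 8 points.

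Shares of cells with a UMI were compared after thinning each cell to 1000 UMIs, which left 4029 RPE cells in Old-RPE and 1432 in Young-RPE and dropped 1241 and 356 shallower ones. Dct was seen in 27.7% (26.3 to 29.1) of RPE cells of Old-RPE and 49.8% (47.2 to 52.4) of those of Young-RPE, against 7.08% and 22.5% of other cells. Without thinning the shares of RPE cells were 62.9% and 88.6%. Pmel was seen in 2.23% (1.80 to 2.74) of thinned RPE cells of Old-RPE and 15.9% (14.1 to 17.9) of those of Young-RPE, against 1.25% and 20.7% of other cells, and the unthinned shares were 8.92% and 63.8%. The share of RPE cells of Young-RPE with a Pmel UMI was thus below that of its other cells, while in Old-RPE it was above. Oca2 was seen in 9.83% (8.93 to 10.8) of thinned RPE cells of Old-RPE and 10.1% (8.55 to 11.7) of those of Young-RPE, against 1.84% and 1.82% of other cells, and in 40.8% and 57.8% of unthinned RPE cells.

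Cells with at least 0.5% of UMIs from Pmel and Mlana and under 3% from Rpe65, Rlbp1 and Ttr numbered 40 (0.263%) in Old-RPE and 1348 (8.60%) in Young-RPE. They are called Pmel- and Mlana-rich cells here and not melanocytes. Their medians of 1112 UMIs in Old-RPE and 1217 UMIs in Young-RPE were 0.301 and 0.265 of those of all kept cells, and 0 of 8 melanocyte markers that are not members were among their 10 leading genes by fold in either library. The 8 markers together, which include Kit, Ednrb and Sox10, had 2107 CPM in Old-RPE and 2913 CPM in Young-RPE in these cells, against 108 and 149 CPM in RPE cells and 45.0 and 138 CPM in other cells. Ednrb, the endothelin receptor of neural crest cells, was at 634 CPM in Old-RPE and 1714 CPM in Young-RPE in these cells, against 2.09 and 27.3 CPM in RPE cells. Sox10 was higher in RPE cells, at 93.9 CPM in Old-RPE and 99.6 CPM in Young-RPE, than in other cells, at 17.5 and 21.7 CPM.

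Pmel and Mlana chose the pigment-rich cells, so their levels there are a description. Pmel was at 10054 CPM in Old-RPE and 11679 CPM in Young-RPE, and Mlana at 5829 and 6709 CPM. Of the members that the gate did not use, Dct was the highest, at 8246 CPM in Old-RPE and 7061 CPM in Young-RPE. Tyrp1 was at 4009.5 CPM in Old-RPE and 5315 CPM in Young-RPE, Tyr at 1005 and 979 CPM, Slc45a2 at 874 and 967 CPM, Mlph at 742 and 702 CPM and Mitf at 694 and 512 CPM. Oca2 and Rab27a were the lowest, with Oca2 at 71.8 CPM from 6 UMIs in Old-RPE and 187 CPM in Young-RPE, and Rab27a at 119.7 and 128 CPM. Rab27a had nearly the same level in RPE cells, with RPE to pigment-rich ratios of 0.981 in Old-RPE and 0.955 in Young-RPE. Tyrp1 was far apart between the classes, with ratios of 0.0079 in Old-RPE and 0.0289 in Young-RPE.

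Between the libraries the members of the pigment-rich cells differed in both directions. Only Oca2 lay at or below −1, at −1.38 (−2.83 to −0.25), where 8.76% of 10434 genes did, and none lay at or above 1, where 22.6% did. A gene with 0 UMIs in 1 library was entered at 3 UMIs, which is 35.9 CPM in Old-RPE and 0.928 CPM in Young-RPE. Genes unseen in the 40 cells of Old-RPE could thus count as higher there. The 22.6% and the median over all genes may therefore be too high and are not read as a background. The interval lay off 0 for Tyrp1, Dct, Oca2 and Mitf, 4 of the 8 members that the gate did not use, and for 5.36% of all genes. A gene with 0 UMIs in 1 library had no interval and could not count among these 5.36%. Intervals also narrow with more UMIs, so this share is not read as a background either. Dct had a log2 ratio of 0.22 (0.11 to 0.33) and Mitf one of 0.44 (0.04 to 0.82), both with a sign opposite to that in RPE cells. Tyrp1 was at −0.41 (−0.57 to −0.25), and the intervals of Tyr, Slc45a2, Rab27a and Mlph held 0. The median ratio over all genes of these cells was 0.27, and the 40 cells of Old-RPE held 83551 UMIs, against 3232474 UMIs in Young-RPE. Another choice of cells used neither Pmel nor Mlana but a UMI of both Kit and Sox10, with Rpe65, Rlbp1 and Ttr under 3%. It held only 15 cells in Old-RPE and 126 in Young-RPE. Sox10 was itself higher in RPE cells than in other cells, so these cells are not called melanocytes either. Their log2 ratios were −2.40 for Tyrp1, −2.21 for Pmel, −2.08 for Mlana, −1.86 for Slc45a2, −1.10 for Mlph, −0.81 for Tyr, −0.64 for Dct and −0.65 for Mitf. The intervals of Oca2 and Rab27a held 0 there. The size of most ratios, and the signs of those of Dct and Mitf, thus depended on the gate.

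The wider pathway was counted in the same way, where 1.74% of all genes lay at or below −1 and 4.89% at or above 1. Of 35 other melanosome genes, such as the subunits of the BLOC-1 and AP-3 sorting complexes and the Hermansky-Pudlak genes, 1 lay at or below −1 in RPE cells and 0 lay at or above 1, with a median of −0.07. The one was Cited1, a transcriptional co-factor, at 2.09 CPM in Old-RPE and 16.2 CPM in Young-RPE, a log2 ratio of −2.96 (−3.30 to −2.63), against 8.19 and 40.1 CPM in other cells. Next came Rab38, a GTPase that delivers enzymes to melanosomes, at −0.59, Myo5a, the motor that Mlph binds, at −0.54, and the channel Trpm1 at −0.44. Of 11 transcription factors of pigment cells, 9 had enough UMIs, 2 lay at or below −1 and 0 at or above 1, with a median of −0.08. These were Pax3, a neural crest factor, at 0.0458 CPM from 2 UMIs in Old-RPE and 1.05 CPM in Young-RPE, a log2 ratio of −4.52 (−7.64 to −2.53), and Pax6, at 0.298 and 2.41 CPM, a log2 ratio of −3.02. Otx2, which acts with Mitf in the RPE, was at 405 CPM in Old-RPE and 491 CPM in Young-RPE, a log2 ratio of −0.28. Lef1 had a ratio of 0.89 with an interval of −0.39 to 2.36.

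The members did not share 1 profile. Over 14 points (7 classes in each library, of which the other cells contain the 4 gated classes), the mean log2(CPM + 1) of the members followed Dct (r = 0.991), Slc45a2 (0.985) and Mlana (0.979) most closely and Rab27a (0.665) and Oca2 (0.674) least. Of 13666 genes, those outside the list with the profiles most like that mean were Trpm1 (0.987), Rab38 (0.983), Fstl4 (0.964), Gm10639 (0.957) and Rab5b (0.955). Those most like Mitf were Tmem51 (0.990), Tmod1 (0.9745), Gyg (0.954), Mob3b (0.954) and Bfsp2 (0.951). Points of 1 library share its free RNA and its depth, and these correlations are descriptions.

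The ARPE-19 libraries ask what soft matrix and YAP do to RPE cells of human origin. Of the 10 members, only MITF, PMEL, RAB27A and MLPH passed the filter of at least 1 TPM (transcripts of a gene scaled to a fixed total per library) in at least 3 of 9 libraries. The 54 values of TYR, TYRP1, DCT, MLANA, SLC45A2 and OCA2 lay between 0 and 0.84 TPM, and 22 of them were listed at 0. The enzymes whose promoters are printed above were therefore near 0 in this line. RPE65 and TTR were listed at 0 in all 9 libraries, RLBP1 lay between 0.57 and 4.56 TPM, and the 8 melanocyte markers summed to 2.33 to 5.34 TPM with 2 to 4 of them at 0. The 10 RPE markers summed to 26.4 to 39.9 TPM with 1 to 3 at 0, and RGR was at 0 in all 9 libraries. The line thus lacked RPE65, TTR and RGR and kept low levels of other RPE markers. YAP1 was at 2469, 2209 and 2424 TPM in the YAP-HA libraries, against 77.3, 55.9 and 64.8 TPM in control cells on 1.5 kPa, as their labels state.

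Control cells on 1.5 kPa were compared with control cells on plastic. MITF was at 3.94, 3.2 and 3.96 TPM on 1.5 kPa, against 12.6, 12.6 and 13.9 TPM on plastic. Every library on the gel was below every library on plastic. It fell by 1.58 on the log2(TPM + 1) scale (SE 0.10, adjusted p = 3.6e-06, limma with Benjamini-Hochberg adjustment over 14606 genes). PMEL was at 2.89, 3.04 and 2.43 TPM on 1.5 kPa, against 6.9, 7.84 and 6.13 TPM on plastic. It fell by 1.07 (SE 0.11, adjusted p = 6.8e-05), again without overlap. Among all genes, 57.9% did not overlap between these groups, 26.6% with the gel higher.

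RAB27A was the highest of the 4 members and changed least. It was at 33.7, 32.3 and 34.7 TPM on 1.5 kPa, against 38.5, 44.6 and 43.1 TPM on plastic, and fell by 0.32 (SE 0.068, adjusted p = 0.0037). MLPH moved the other way. It was at 11.6, 15.1 and 14.3 TPM on 1.5 kPa, against 5.34, 4.43 and 7.78 TPM on plastic, and rose by 1.12 (SE 0.17, adjusted p = 6.0e-04). Of the 4 members tested, 3 were lower and 1 higher on the gel, where 50.5% of 14606 genes were called (27.9% lower and 22.6% higher), so that a call by itself says little here. The median of all genes was −0.04.

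YAP-HA cells on 1.5 kPa were then compared with control cells on 1.5 kPa. MITF was at 10.2, 9.93 and 11.5 TPM in YAP-HA cells, against 3.94, 3.2 and 3.96 TPM in control cells on 1.5 kPa, and rose by 1.30 (SE 0.10, adjusted p = 4.8e-06). PMEL was at 8.27, 8.74 and 9.38 TPM in YAP-HA cells, against 2.89, 3.04 and 2.43 TPM in control cells on 1.5 kPa, and rose by 1.37 (SE 0.11, adjusted p = 6.7e-06). The YAP-HA libraries were higher than all control libraries on the gel for both genes. Among all genes, 56.8% did not overlap between these groups, 28.3% with YAP-HA higher.

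RAB27A was at 41.9, 41.2 and 41.9 TPM in YAP-HA cells, against 33.7, 32.3 and 34.7 TPM in control cells on 1.5 kPa, and rose by 0.30 (SE 0.068, adjusted p = 0.0044). MLPH was at 2.67, 2.95 and 3.47 TPM in YAP-HA cells, against 11.6, 15.1 and 14.3 TPM in control cells on 1.5 kPa, and fell by 1.86 (SE 0.17, adjusted p = 1.7e-05). MLPH was the largest change of the 4 and the one with the opposite sign. Here 3 members were higher and 1 lower, where 48.4% of genes were called (24.5% higher and 23.9% lower) and the median of all genes was 0.0055. This comparison and the one above share the control libraries on 1.5 kPa, which enter them with opposite signs, so that values in the one are not independent of those in the other. The ratio of MLPH to MITF within a library was 0.263, 0.297 and 0.301 in YAP-HA cells, 2.94, 4.71 and 3.60 in control cells on 1.5 kPa, and 0.424, 0.351 and 0.559 in control cells on plastic.

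YAP-HA cells on 1.5 kPa were also set against control cells on plastic, which differ in both vector and matrix. MLPH averaged 3.03 ± 0.41 TPM in YAP-HA cells and 5.85 ± 1.73 TPM on plastic (SD, n = 3 each) and fell by 0.74 (SE 0.17, adjusted p = 0.0082 with limma). MITF averaged 10.5 ± 0.86 TPM in YAP-HA cells and 13.05 ± 0.76 TPM on plastic (SD, n = 3 each), a difference of −0.28 with an adjusted p of 0.0497 in limma. That call was lost in 9 of 12 alternative settings, with adjusted p-values of 0.033 to 0.158. PMEL averaged 8.80 ± 0.56 TPM in YAP-HA cells and 6.96 ± 0.86 TPM on plastic (SD, n = 3 each), a difference of 0.30 (0.06 to 0.55) that missed the threshold with an adjusted p of 0.0575 in limma and passed it with quantile normalization (adjusted p = 0.0167) and without plastic replicate 2 (adjusted p = 0.0394). RAB27A had a difference of −0.01 (−0.16 to 0.14) with an adjusted p of 0.919 in limma. Of all genes, 34.4% were called (20.2% lower and 14.2% higher), against 2 of the 4 members, both lower. The groups did not overlap for MLPH, MITF and PMEL, and of all genes 49.8% did not overlap, 21.4% with YAP-HA higher.

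**Figure D4:**
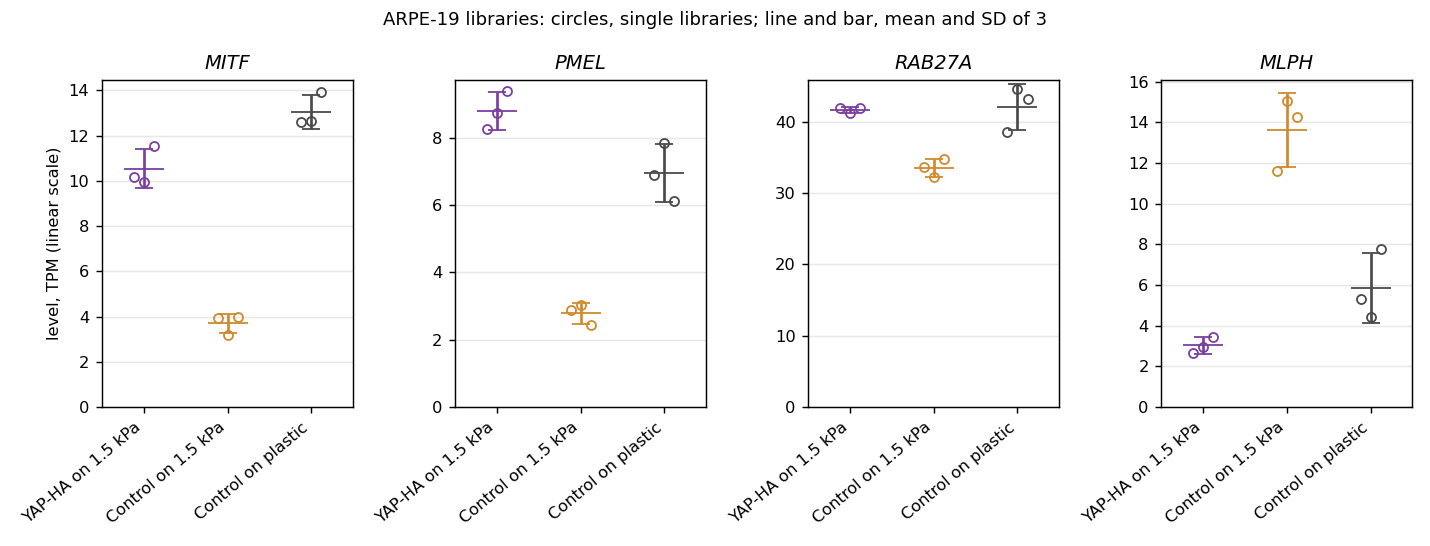
TPM (linear scale, from 0) of MITF, PMEL, RAB27A and MLPH in the ARPE-19 libraries, with circles for single libraries and a line and bar for the mean and SD of 3. MITF and PMEL have their lowest values in control cells on 1.5 kPa (3.2 to 3.96 and 2.43 to 3.04 TPM), where MLPH has its highest (11.6 to 15.1 TPM).

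The other pathway genes moved in both directions in ARPE-19. Of the 35 other melanosome genes, 31 were tested. Of all genes, 48.4% were called in YAP-HA against control cells on 1.5 kPa, 50.5% on 1.5 kPa against plastic and 34.4% in YAP-HA against plastic. The counts of calls are therefore not read as a result about the list. In YAP-HA cells against control cells on 1.5 kPa, 7 were higher, 7 lower and 17 not called, with a median of 0.04. The BLOC-1 subunits BLOC1S2 and BLOC1S4 fell by 0.81 (adjusted p = 0.00022, limma) and 0.73 (adjusted p = 0.00084), the melanosomal glycoprotein GPNMB fell by 0.68 (adjusted p = 2.1e-05), and MYRIP, the effector of Rab27a in the RPE, rose by 0.75 (adjusted p = 0.0010) at 1.19 ± 0.02 TPM in YAP-HA cells and 0.303 ± 0.098 TPM in control cells (SD, n = 3 each). On 1.5 kPa against plastic, 8 were higher, 9 lower and 14 not called, with a median of −0.06, and the Rab27a effector SYTL2 fell by 1.38 (adjusted p = 1.2e-05), the adaptor AP1G1 fell by 0.75, the tetraspanin CD63 rose by 0.67 and BLOC1S4 rose by 0.63. In YAP-HA cells against plastic, 3 were higher, 4 lower and 24 not called, with a median of −0.0062, and SYTL2 fell by 0.94, GPNMB by 0.70 and HPS4 by 0.65 while RAB38 rose by 0.58.

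Of the 11 transcription factors, 7 were tested, too few to set their calls against the 48.4%, 50.5% and 34.4% of all genes called in the same comparisons. TFEB, the relative of MITF that drives lysosomal genes, was at 1.77 ± 0.23 TPM in YAP-HA cells and 6.79 ± 0.60 TPM in control cells on 1.5 kPa (SD, n = 3 each) and fell by 1.49 (adjusted p = 3.9e-06, limma), a sign opposite to that of MITF. SOX9 fell by 0.76, LEF1 rose by 0.60 and PAX6 rose by 0.44 in the same comparison, which made 2 higher, 2 lower and 3 not called. On 1.5 kPa against plastic, 1 was higher, 5 lower and 1 not called, and PAX6 fell by 1.02, SOX9 by 0.61, OTX2 by 0.49 and ZEB2 by 0.49. In YAP-HA cells against plastic, 4 were lower and 3 not called, and SOX9 fell by 1.37, TFEB by 1.01, PAX6 by 0.58 and OTX2 by 0.29. The medians were 0.20, −0.49 and −0.29 in the order given here.

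The eye-cup libraries ask what TRULI does in old mice. Lysis buffer was applied to the eye cup after the retina had been taken out, so RNA of the choroid may be present as well, and in such bulk RNA fewer cells of a type and less RNA per cell cannot be told apart. Replicates here and in ARPE-19 are separate samples by their labels, and with nothing said of separate animals or cultures the p-values measure only the spread between these samples. All 10 members passed the filter. Dct was the highest, at 3190.3 and 2821 TPM with TRULI, against 2104 and 2219 TPM without TRULI. Slc45a2 was the lowest, at 34.5 and 36.8 TPM with TRULI, against 28.3 and 25.1 TPM without TRULI.

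Of the members, 0 of 10 passed the threshold, where 0.0529% of 15132 genes did (8 genes, 0.0198% higher and 0.0330% lower with TRULI), and 5 of 10 had an unadjusted limma p under 0.05 (Pmel, Dct, Tyrp1, Mlph and Slc45a2), as had 1810 of all genes. Pmel was at 398 and 351 TPM with TRULI, against 237 and 259.8 TPM without TRULI, a log2 difference of 0.59 (0.30 to 0.88, adjusted p = 0.224, limma). Tyrp1 was at 973 and 983 TPM with TRULI, against 647 and 759.6 TPM without TRULI, a difference of 0.48 (0.20 to 0.76, adjusted p = 0.260). Both libraries with TRULI lay above both without it for both genes.

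Dct had a difference of 0.47 (0.23 to 0.72, adjusted p = 0.231, limma). Mlph was at 125 and 123 TPM with TRULI, against 86.6 and 95.7 TPM without TRULI, a difference of 0.44 (adjusted p = 0.301). Slc45a2 had a difference of 0.41 (adjusted p = 0.413). Mitf was at 171 and 158 TPM with TRULI, against 118 and 143 TPM without TRULI, a difference of 0.34 (−0.01 to 0.69, adjusted p = 0.435). Values with TRULI were again the higher ones for these genes.

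Tyr was at 162 and 155 TPM with TRULI, against 115 and 143 TPM without TRULI, a difference of 0.30 (adjusted p = 0.491, limma). Mlana was at 303 and 329 TPM with TRULI, against 266 and 269 TPM without TRULI, a difference of 0.24 (adjusted p = 0.446). Rab27a was at 403 and 347 TPM with TRULI, against 338 and 315 TPM without TRULI, a difference of 0.20 (adjusted p = 0.579). Oca2 was the only member lower with TRULI, at 57.3 and 55.1 TPM, against 61.1 and 61.0 TPM without TRULI, a difference of −0.12 (−0.44 to 0.20, adjusted p = 0.790).

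The groups did not overlap for any of the 10 members, with 9 higher and 1 lower with TRULI. Among all genes 43.3% did not overlap and 25.2% did so with TRULI higher. The median difference was 0.37 over the members and 0.04 over all genes. Against Oca2 in the same library, there were 6.96 and 6.37 units of Pmel TPM with TRULI and 3.89 and 4.26 without TRULI. For Dct these ratios were 55.7 and 51.2 with TRULI and 34.4 and 36.4 without TRULI.

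**Figure D5:**
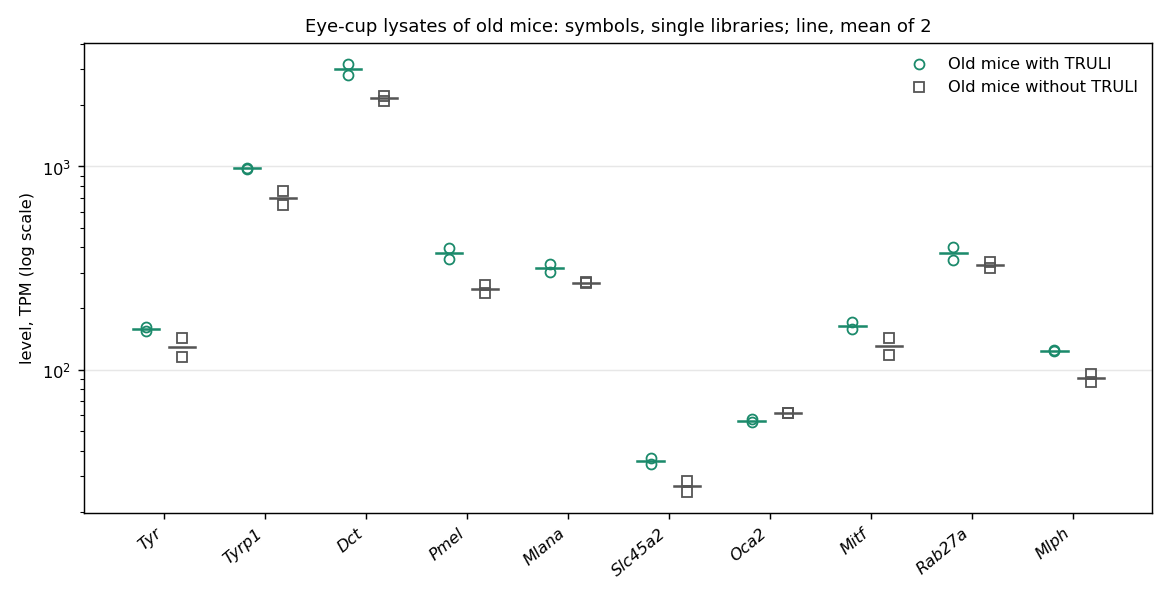
TPM (log scale) of the 10 members in eye-cup lysates of old mice, with symbols for single libraries with TRULI and without TRULI and a line for the mean of 2. For 9 genes both libraries with TRULI lie above both without, and for Oca2 (57.3 and 55.1 against 61.1 and 61.0) they lie below.

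Summed markers of some other cell types also did not overlap between the groups, and these sums were not tested. Of all genes, 43.3% did not overlap. The 8 melanocyte markers summed to 354 and 305 TPM with TRULI, against 281 and 269 TPM without TRULI, with none of the 8 at 0 in any library. The 10 RPE markers summed to 12344 and 9273 TPM with TRULI, against 11181 and 11786 TPM without TRULI, and the groups overlapped. The 5 macrophage markers summed to 9016 and 8023 TPM with TRULI, against 7031 and 6958 TPM without TRULI, the 4 pericyte and smooth muscle markers to 333 and 571 TPM with TRULI against 190.2 and 236 TPM without TRULI, and the 4 T cell markers to 13.0 and 11.6 TPM with TRULI against 44.7 and 63.1 TPM without TRULI. The photoreceptor markers overlapped, at 351 and 609 TPM with TRULI and 1189 and 576 TPM without TRULI. The sums of fibroblast, Schwann and B cell markers overlapped as well. The 5 endothelial markers summed to 279 and 338.8 TPM with TRULI, against 376 and 338.9 TPM without TRULI. The part of these in the members' differences was not tested. Of the 35 other melanosome genes, 0 passed the threshold and 6 had an unadjusted p under 0.05 in limma, with a median of 0.13. Of the 11 transcription factors, 0 passed and 2 had an unadjusted p under 0.05, with a median of 0.06. Among all 15132 genes, 8 passed and 1810 had an unadjusted p under 0.05 in limma, with a median of 0.04. The counts of the 2 lists are therefore not read as a result about them.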

How the data were processed

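The authors ran Cell Ranger 6.0.1 with mm10 on the single-cell reads (10x 5′ v2 kit). They deposited raw UMI counts of 32285 genes per barcode. The authors deposited the bulk data as TPM from STAR and RSEM, and the submitters' processing notes list STAR 2.7.3a and 2.7.10b with the builds GRCh38 and GRCm39. TPM keeps no depth, so that of the bulk libraries is unknown. The label of the 3-month library also names its condition as old, and its age and title were followed.

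Barcodes under 200 genes, those above 10% in mitochondrial UMIs and those with any hemoglobin UMI were dropped. UMIs were summed by class and given as CPM with exact 95% intervals (Poisson, conditional for ratios, binomial for shares). For log2 ratios over all genes, a gene with 0 UMIs in 1 library was entered at 3 UMIs. Gates on UMIs chose the other classes: fibroblast at 0.5%, endothelial and macrophage at 0.3% and T cell at 0.1%. Doublets were scored with Scrublet (scanpy 1.11.5, expected rate 0.08) and kept. The automatic threshold marked 0 cells in Young-RPE, so 0.2859 was used in both libraries, which marked 4.01% of cells in Old-RPE and 3.62% in Young-RPE, and leaving these out was an alternative.

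TPM was analysed as log2(TPM + 1) with limma 3.58.1 (R 4.3.3), with a trend in the spread and without its robust option. P-values were adjusted after Benjamini and Hochberg over all genes tested, and the threshold was 0.05. Genes needed a TPM of 1 in at least 3 of 9 ARPE-19 libraries, which shared 1 fit, or 2 of 4 mouse libraries. This scale understates the change of low genes. The code was tested on simulated data. Python 3.11.15, numpy 2.4.6, scipy 1.17.1 and matplotlib 3.10.9 were used. All 10 members are named, and of the other lists the 4 genes with the largest absolute ratio (single cells, at least 20 UMIs) or the largest absolute difference past the threshold (bulk). The 5 genes most like the members' mean and most like Mitf are named too, from those with at least 200 UMIs. The members, lists and tests were chosen with earlier results of these data known. Alternatives covered the filters, gates, doublets, depth, pseudocounts (0.1 and 0.5), no filter on low values, quantile normalization, a replicate block and leaving out each library. No column was left without a sample.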

Additional observations from a re-analysis of the deposited data

Results flagged for a closer look

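Dct and Mitf differed in direction between cell classes under the same contrast. The log2 ratio of Old-RPE over Young-RPE was −1.01 in RPE cells for Dct, against 0.22 in Pmel- and Mlana-rich cells. For Mitf it was −0.074 in RPE cells, against 0.44 in Pmel- and Mlana-rich cells. In cells chosen by Kit and Sox10 instead, the ratios were −0.64 for Dct and −0.65 for Mitf, with the same sign as in RPE cells. With 1 library per age the difference was not tested, and the 40 pigment-rich cells of Old-RPE held 689 UMIs of Dct and 58 of Mitf.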

How the results depend on the processing

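The summed log2 ratio of the members in RPE cells was −0.87. It was −0.99 with a gate of 3%, −0.68 with a gate of 8%, −0.82 without the RPE cells rich in Pmel and Mlana and −1.22 with cells thinned to 1000 UMIs. After subtracting other cells it was 0.0036, a value that includes net levels below 0 in Young-RPE. A further 2 alternatives were chosen after seeing the data, and they gave −1.12 in RPE cells of 8000 to 16000 UMIs and −0.83 relative to the median of all genes. The count of members at or below −1 in RPE cells was 5, and 4 to 6 over 9 alternatives. Rab27a had a log2 ratio of 0.09 with the gate of 8% and of −0.28 in RPE cells of 8000 to 16000 UMIs. In Pmel- and Mlana-rich cells 6 members had an interval off 0, where 5.36% of genes did, a share not read as a background (see above). Pmel and Mlana, which chose the cells, are among the 6. That number was 3 with a gate of 1% (22 cells in Old-RPE and 842 in Young-RPE) and 8 in cells with both Kit and Sox10 (15 and 126), where Dct was at −0.64, Mitf at −0.65, Tyrp1 at −2.40 (−0.41 with the gate on Pmel and Mlana) and Slc45a2 at −1.86 (−0.15). In ARPE-19 every call of MITF, PMEL, RAB27A and MLPH against control cells on 1.5 kPa, and of these on 1.5 kPa against plastic, held in all 12 alternatives each. With a replicate block, 6645 genes were called instead of 7066 (YAP-HA against control on 1.5 kPa), 6905 instead of 7383 (1.5 kPa against plastic) and 4530 instead of 5019 (YAP-HA against plastic), and no call of a member changed. Same-numbered libraries of ARPE-19 deviated with correlations of −0.12 to 0.09, which gives no sign of pairing but cannot exclude it. In mice, with 2 libraries a group, the deviations of a group mirror each other, so the correlation of 0.06 cannot decide on pairing. For TRULI, 8 genes were called, and 0 with a pseudocount of 0.1, 0 without a filter, 0 with a replicate block 4 and 13 without TRULI replicates 1 and 2, and 2 and 1 without the untreated replicates 1 and 2. A lone library is then assumed to vary like the others. In ARPE-19, 6 members lay under 1 TPM, too low for a test, and Oca2 in the pigment-rich cells of Old-RPE rests on 6 UMIs. The causes of these shifts were not tested.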
